A study of Mus musculus with 4 samples.

Results

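Cadherins hold neighbouring cells together, and catenins tie their tails to the actin skeleton. Accessible chromatin at 9 genes of this adhesion system was compared between Zeb1 knockdown and control retinal endothelial cells. The genes were the type I cadherins Cdh1, Cdh2 and Cdh3, the type II cadherins Cdh5 and Cdh11, the membrane-anchored Cdh13, and the cytoplasmic partners Ctnna1, Ctnnd1 and Jup. They were taken by gene symbol from a list of the adhesion system, 9 of the 21631 protein-coding genes on the autosomes and X. The rule uses no measured value, but the list was drawn up with earlier results of these data known. Every peak that overlapped the gene body or the 10 kb on either side of it by at least 1 bp was assigned to the gene, and that whole stretch is called its window. A peak within 1 kb of either end of the gene is called a gene-end peak. The gene table used gives no strand and no exons, so a gene end is named by its low or high coordinate, and which of them is the start is not known from it.

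The 2 knockdown libraries came from C57BL/6 mice whose genotype is labelled Zeb1 knockdown, with CKO in the titles, and the 2 control libraries from C57BL/6 mice of control genotype. All carry the label P16 and were made by ATAC-seq, which marks open DNA with a transposase, from 2000 retinal endothelial cells sorted by FACS. The allele, the driver of the deletion and the number of animals per library are not given in the sources used here, and replicates may be technical. Knockdown replicates 1 and 2 held 13689 and 19886 peaks, and control replicates 1 and 2 held 7608 and 13672. Read depth is unknown, so a gene without a listed peak may still have been open below the detection limit. In a bulk library, more cells with an open site and a more open site per cell cannot be told apart.

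In endothelium Cdh5, VE-cadherin, is the junctional cadherin and Cdh2, N-cadherin, is mostly found outside the junctions or towards mural cells. Cdh1, E-cadherin, is the adhesion molecule of epithelia and a classic target of repression by Zeb1, a zinc-finger factor that binds E2-box DNA. In the classical complex, catenins of the armadillo family bind the cadherin tail, Ctnnd1 keeps the cadherin at the membrane, and Ctnna1, alpha-E-catenin, links the complex to actin.

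The endothelial label was checked against marker genes. All 15 endothelial markers had a peak in their window in knockdown replicates 1 and 2, against 11 in control replicate 1 and 15 in control replicate 2. Over all genes the share with a window peak was 54.6% and 61.7% in the knockdown libraries and 35.4% and 53.9% in the controls. Gene-end peaks were listed for 6 and 8 of these markers in the knockdown libraries and for 3 and 7 in the controls, near the share of all genes with an end peak, which was 39.5% and 45.2% in knockdown replicates 1 and 2 and 22.0% and 38.5% in control replicates 1 and 2. At Zeb1 itself a gene-end peak was listed in both knockdown libraries and in control replicate 2, which does not check the genotype. Photoreceptor markers followed the replicate number: gene-end peaks were listed for 1 and 8 of 12 in knockdown replicates 1 and 2, and for 1 and 9 in control replicates 1 and 2. Photoreceptor windows held a peak for 6 and 12 of 12 genes in the knockdown libraries and for 4 and 11 in the controls. Window peaks thus do not set endothelial apart from photoreceptor markers in the replicate 2 libraries. Of 6 Muller glia and astrocyte markers, 3 and 2 had a window peak in the knockdown libraries and 1 and 2 in the controls. For 7 pericyte and smooth muscle markers the counts were 0 and 3 against 0 and 1. For 6 leukocyte markers they were 2 and 2 against 3 and 2. The part of these cell types in the results below was not tested.

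Of the 9 genes, 4 had a gene-end peak in both knockdown libraries and in neither control library (Cdh1, Cdh2, Cdh11 and Ctnna1), a pattern called knockdown-only. At Cdh11 the end peaks of the knockdown libraries did not overlap each other. In single libraries, 6 and 7 of the 9 had an end peak in knockdown replicates 1 and 2, against 2 and 2 in the controls, beside the shares of all genes given above, which are also lowest in control replicate 1. Over all 21631 genes 3.8% were knockdown-only, and 7.82% of the 10499 genes that had such a peak in at least 1 library. Of the 9, 0 were control-only, the reverse pattern, which 7 genes of the whole table had, 0.0324%. Cdh5 and Jup had an end peak in every library, as did 20.9% of all genes. Cdh3 had 1 in knockdown replicate 2 alone, and Cdh13 and Ctnnd1 had none, like 51.5% of all genes. Over the whole window, 3 of the 9 were knockdown-only (Cdh1, Cdh2 and Ctnna1), against 3.96% of all genes, and 0 were control-only, against 0.19%. The windows of Cdh5, Cdh13, Ctnnd1 and Jup had a peak in every library, as did those of 32.1% of all genes.

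The 9 windows held 14 and 27 peaks in knockdown replicates 1 and 2, and 7 and 9 in control replicates 1 and 2. Per 1000 peaks listed in the library, this was 1.02 and 1.36 in the knockdown libraries, against 0.920 and 0.658 in the controls. Knockdown replicate 1 and control replicate 2 have lists of nearly equal length, and in these the windows held 14 and 9 peaks. In 4 of the 9 genes (Cdh1, Cdh2, Cdh5 and Ctnna1) both knockdown libraries listed more peaks than either control, a pattern found in 9.42% of all genes. The reverse occurred in 0 of the 9 genes, and in 0.273% of all genes. The median of the knockdown minus control difference in mean peak number was 1 peak over the 9 genes and 0 over all genes. However, the windows of the 9 are longer, with a median of 91.9 kb against 37.3 kb. Neither this median nor the shares of all genes were matched for window length. With 2 libraries against 2, a two-sided exact permutation test cannot give a p below 0.333.

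**Figure D1:**
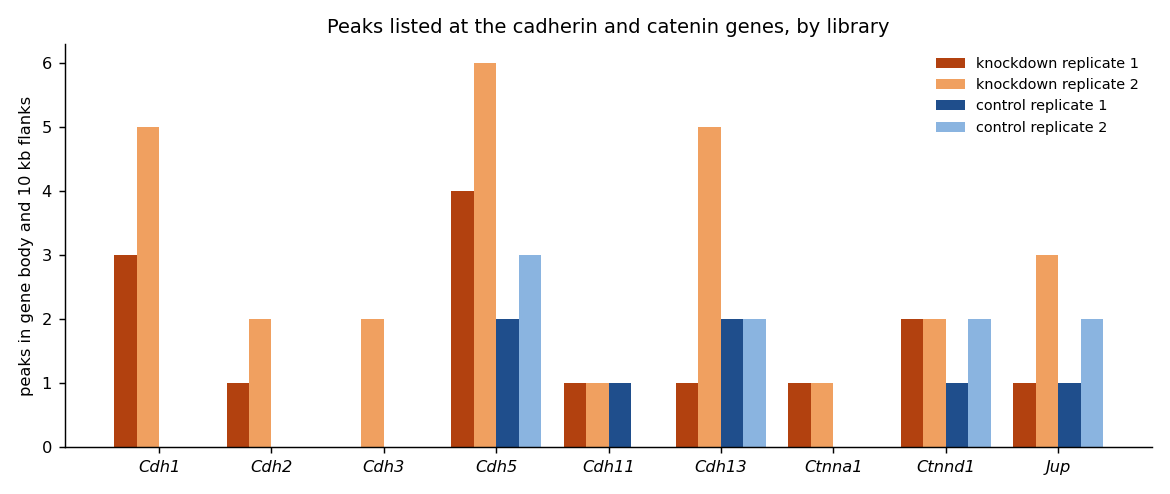
Number of peaks (vertical axis) listed in each gene's window of gene body and 10 kb flanks, with 1 bar per library and no error bars. The knockdown bars at Cdh1, Cdh2 and Ctnna1 stand beside controls at 0, while Cdh13, Ctnnd1 and Jup overlap between the groups.

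The counts changed with the filter on the lists, more with lists of equal length than with a stricter q. With each list reduced to its 7608 strongest peaks, the windows held 7 and 7 peaks in the knockdown libraries and 7 and 6 in the controls, and Ctnna1 was the 1 gene left with a knockdown-only end (1.49% of all genes). Cdh1, where the knockdown libraries then shared no site, and Ctnna1 had knockdown-only windows (1.96% of all genes). Only 1 knockdown-only region was left, at Ctnna1, against 5.78% of all regions. At a −log10 q of 3 or more, a q of 0.001, Cdh2 and Ctnna1 kept such an end (3.86% of all genes), and Cdh1, Cdh2 and Ctnna1 such a window (4.7%). The windows then held 11 and 16 peaks in the knockdown libraries and 5 and 7 in the controls, and 5 knockdown-only regions, against 11.6% of all regions.

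Cdh1 had the largest difference in mean peak number of the 9 genes. Its window, around chromosome 8, 106603350 to 106670247 (mm10), held 3 peaks in knockdown replicate 1 and 5 in knockdown replicate 2, against 0 and 0 in control replicates 1 and 2. The groups did not overlap, with a mean of 4 ± 1.41 peaks in the knockdown and 0 ± 0 in the controls (SD, n = 2 each; two-sided exact permutation p = 0.333). The peaks covered 0.832 and 1.89 kb in the knockdown libraries.

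After merging across libraries, the Cdh1 peaks formed 5 regions, of which 3 were held by both knockdown libraries. The region over the low-coordinate end ran from 106603130 to 106603458. A second lay at 106615947 to 106616283, 12.6 kb inside the gene, and the last at 106619495 to 106619986, 16.1 kb inside it. The remaining 2, at 4.98 and 29.4 kb from the low end, were listed in knockdown replicate 2 alone. All 5 thus lay in the part of the gene nearer its low end, and no peak was listed in the flanks or at the high end.

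These were peaks of middling strength. In knockdown replicate 1 the gene-end peak had a fold enrichment of 4.93 over that library's background, as the authors' file gives it, and stood at 45.9% of the list counted from the strongest peak. In knockdown replicate 2 the same end had a fold enrichment of 4.33 and stood at 73.6%. The strongest Cdh1 peak of knockdown replicate 2 was the one 4.98 kb inside the gene, at 26.7% of that list. At a −log10 q of 3 or more the window still held 3 and 4 peaks in the knockdown libraries and 0 and 0 in the controls, but the gene-end peak of knockdown replicate 2 was lost. In lists of the 7608 strongest peaks, 1 and 2 peaks were left in the knockdown libraries and 0 and 0 in the controls. The peak left in knockdown replicate 1 was the gene-end peak. Those left in knockdown replicate 2 lay 4.98 and 12.6 kb inside the gene, so the knockdown libraries then shared no site.

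**Figure D2:**
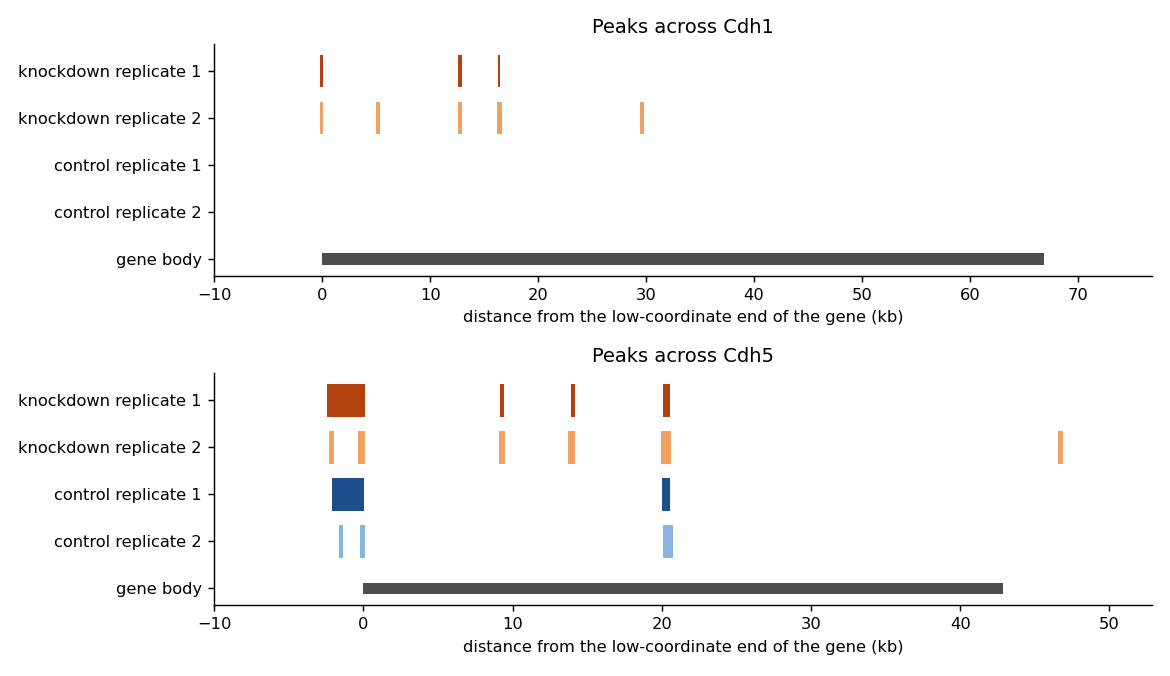
Peaks of each library (coloured blocks, to scale) along Cdh1 and Cdh5 and their 10 kb flanks, with distance from the low-coordinate gene end in kb on the horizontal axis and the gene body as a grey bar. Cdh1 has blocks in the knockdown libraries and none in the controls, while the blocks at the low end of Cdh5 and 19.9 kb inside it recur in all 4 libraries.

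The nearest Cdh1 peak outside the window lay 12.7 kb above the gene in knockdown replicate 2 and 13.0 kb above it in knockdown replicate 1. In the controls the nearest peak to the gene was 188 kb away in replicate 1 and 48.0 kb away in replicate 2. A flank of 50 kb therefore reached a control peak, and Cdh1 was then no longer knockdown-only over its window.

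Markers of epithelia that express Cdh1 or Cdh3 were set beside these values. Keratins of surface and simple epithelia had a gene-end peak for 0 of 8 genes in every library, and in their windows 0 and 3 genes had a peak in knockdown replicates 1 and 2, against 0 and 1 in control replicates 1 and 2. Pigment epithelium markers had a gene-end peak for 2 and 4 of 12 genes in the knockdown libraries and for 3 and 3 in the controls, and a window peak for 3 and 5 in the knockdown libraries and 4 and 4 in the controls. Of these 12, Mitf and Pmel had an end peak in all 4 libraries and Best1 a window peak in all 4. Dct and Rlbp1 had peaks in some libraries. The windows of all the others, Rpe65, Tyr, Tyrp1, Ttr, Lrat, Slc45a2 and Oca2, held no peak in any library. The part of such epithelia in the values at Cdh1 and Cdh3 was not tested.

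Cdh3, P-cadherin, is the neighbour of Cdh1 on chromosome 8 (106510852 to 106556911) and is known from basal epithelia and pigment epithelium. Its window held 0 peaks in knockdown replicate 1 and 2 in knockdown replicate 2, against 0 and 0 in control replicates 1 and 2. The groups overlapped, since knockdown replicate 1 and both controls were at 0 (two-sided exact permutation p = 1). The gene-end peak of knockdown replicate 2 was broad, from 106510743 to 106511800, and stood at 67.4% of its list. Its other peak lay in the high flank, in the stretch between Cdh3 and Cdh1.

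Cdh2 (chromosome 18, 16588877 to 16809246) held 1 and 2 peaks in knockdown replicates 1 and 2, and 0 and 0 in control replicates 1 and 2 (exact permutation p = 0.333). The groups did not overlap. Both knockdown libraries shared a wide peak across the high-coordinate end, 1384 bp long in replicate 1 and 1268 bp in replicate 2, which merged to 16808483 to 16809867. It stood at 62.2% of the list in replicate 1 and at 25.2% in replicate 2. The remaining peak, 192 kb from the low end, was near the bottom of the replicate 2 list at 89.3%. With the 7608 strongest peaks the end peak was left in knockdown replicate 2 alone.

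Cdh5, the defining cadherin of endothelium, was open in every library. Its window (gene at chromosome 8, 104101613 to 104144504) held 4 and 6 peaks in knockdown replicates 1 and 2, against 2 and 3 in control replicates 1 and 2. The groups did not overlap, with a mean of 5 ± 1.41 peaks in the knockdown and 2.5 ± 0.707 in the controls (SD, n = 2 each; two-sided exact permutation p = 0.333). In kb under peaks the order was 3.58 and 2.70 in the knockdown libraries and 2.60 and 1.27 in the controls.

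Peak number at Cdh5 depended on how the low end was split. In both replicate 1 libraries a broad peak covered the end and the flank before it, 2578 bp in the knockdown and 2111 bp in the control. In both replicate 2 libraries 2 short peaks lay in the same stretch. Counted as merged regions, Cdh5 had 4 and 5 in the knockdown libraries and 2 and 2 in the controls. The 2 regions held by all 4 libraries were the low end and a site 19.9 kb inside the gene, at 104121534 to 104122355. That inner site was among the stronger peaks of each list, at 27.4% and 9.54% in knockdown replicates 1 and 2 and at 26.4% and 22.1% in control replicates 1 and 2.

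Another 2 sites inside Cdh5 were listed in both knockdown libraries but in no control. The first ran from 104110680 to 104111132, 9.07 kb inside the gene, at 43.0% and 57.6% of the lists of knockdown replicates 1 and 2. The second ran from 104115323 to 104115778 and was weak, at 83.6% and 96.9%. In lists of the 7608 strongest peaks Cdh5 had 3 and 1 peaks in the knockdown libraries and 2 and 2 in the controls, so the groups then overlapped.

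Cdh11, a cadherin known from mesenchyme and bone, was counted as knockdown-only at its high-coordinate end (gene at chromosome 8, 102632095 to 102785493), but the peaks of the knockdown libraries were not at the same place. The peak of knockdown replicate 1 ran from 102785956 to 102786783 and that of knockdown replicate 2 from 102785136 to 102785335, with 620 bp between them. They stood at 80.5% and 89.5% of their lists. Control replicate 1 had a peak inside the gene at 96.6% of its list, and control replicate 2 had none. Over the window the numbers were 1 and 1 in the knockdown libraries and 1 and 0 in the controls, which overlap (exact permutation p = 1), and at a −log10 q of 3 or more no Cdh11 peak was left in any library.

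Cdh13, T-cadherin, lacks the catenin-binding tail and is held to the membrane by a lipid anchor. It spans 1185 kb (chromosome 8, 118140017 to 119324929), the longest of the 9 genes, and had no gene-end peak in any library. Its window held 1 and 5 peaks in knockdown replicates 1 and 2 and 2 and 2 in control replicates 1 and 2. The groups overlapped (exact permutation p = 1). Of its 8 merged regions, 7 were listed in a single library, 4 of them in knockdown replicate 2. The exception, at 118393867 to 118394566, was held by both knockdown libraries and by control replicate 2, near the middle of each list.

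**Figure D3:**
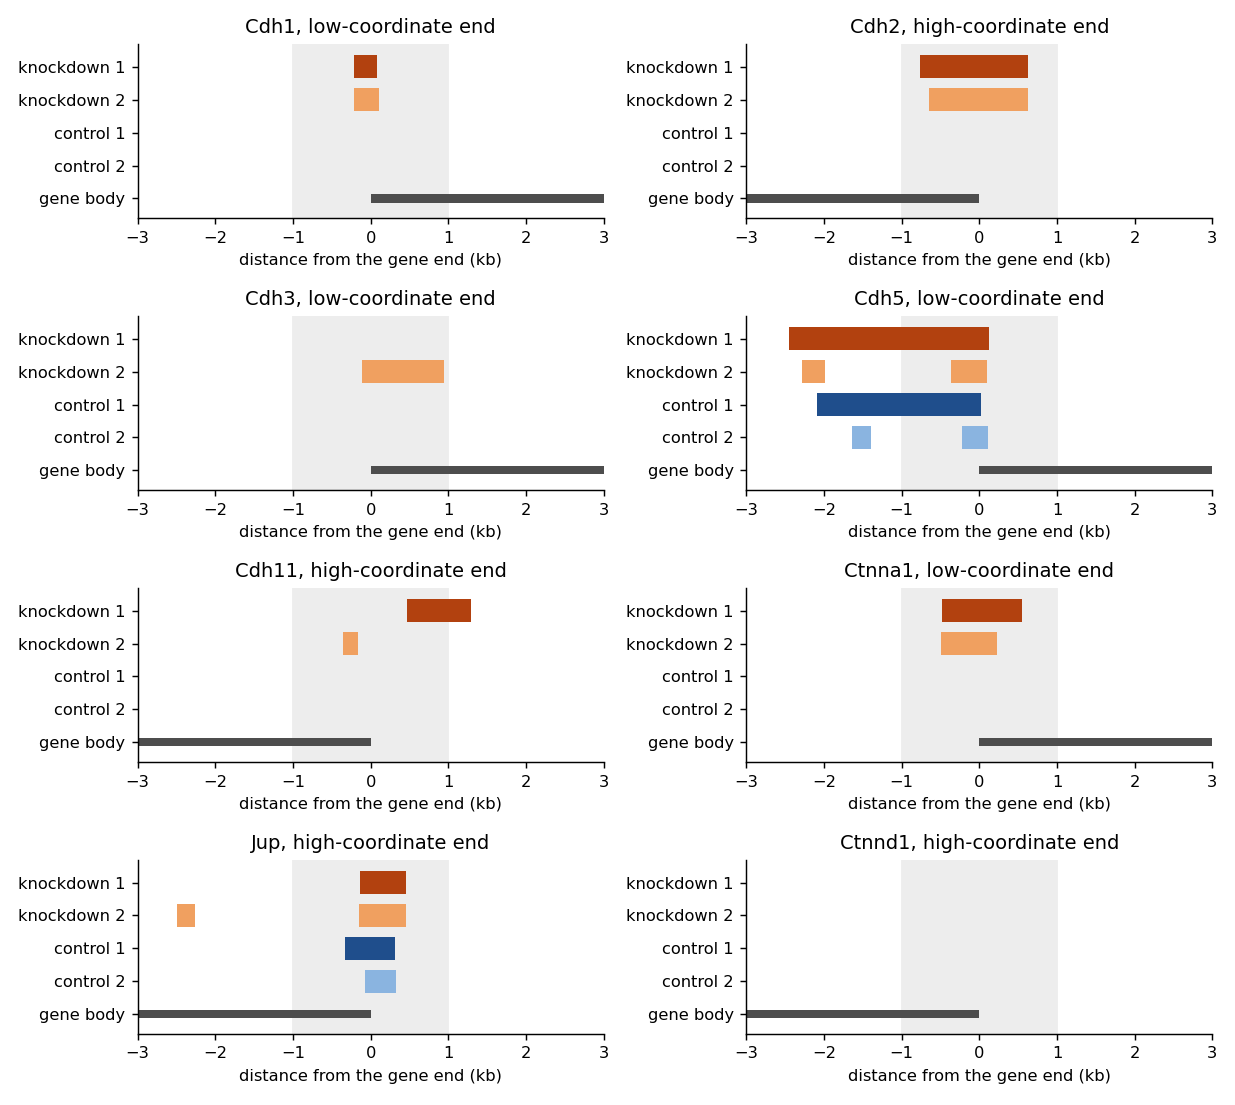
Peaks of each library (coloured blocks, to scale) within 3 kb of the named end of 8 genes, with distance from the gene end in kb, the gene body as a grey bar and the 1 kb gene-end stretch shaded. Cdh1, Cdh2 and Ctnna1 have overlapping knockdown blocks without a control block, the 2 Cdh11 blocks lie apart, Cdh5 and Jup have blocks in all 4 libraries and Ctnnd1 has none.

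Ctnnd1, the catenin that binds the cadherin tail near the membrane (chromosome 2, 84587096 to 84658977), had no gene-end peak in any library. Its window held 2 and 2 peaks in knockdown replicates 1 and 2 and 1 and 2 in control replicates 1 and 2. The groups overlapped (exact permutation p = 1). RefSeq gives Ctnnd1 a further start 8237 bp inside the gene, and a peak lay over this inner start in both knockdown libraries and in control replicate 2. The sequences are printed because the outer start, rich in CpG, had no peak and the inner one had. Capitals mark bases under a peak in each of those 3 libraries. The outer start is chr2:84658928-84659227 and the inner start chr2:84650691-84650990, both on the minus strand.
Ctnnd1 outer start: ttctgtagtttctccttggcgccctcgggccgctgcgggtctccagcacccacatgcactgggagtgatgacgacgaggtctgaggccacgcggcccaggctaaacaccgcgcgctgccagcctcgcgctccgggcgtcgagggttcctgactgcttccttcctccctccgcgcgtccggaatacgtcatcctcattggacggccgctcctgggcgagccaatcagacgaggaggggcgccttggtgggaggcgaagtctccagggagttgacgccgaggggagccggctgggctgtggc
Ctnnd1 inner start: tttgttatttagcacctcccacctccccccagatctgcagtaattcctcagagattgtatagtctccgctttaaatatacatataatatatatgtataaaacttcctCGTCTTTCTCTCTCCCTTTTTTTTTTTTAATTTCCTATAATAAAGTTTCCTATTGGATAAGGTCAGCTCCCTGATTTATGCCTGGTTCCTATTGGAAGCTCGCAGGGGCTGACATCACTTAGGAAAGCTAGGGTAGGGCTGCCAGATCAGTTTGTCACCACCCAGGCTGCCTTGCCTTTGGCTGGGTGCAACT
The outer stretch holds 30 CpG and 67.7% G and C, and the inner stretch 3 CpG and 42.7% G and C. The median over 32851 RefSeq promoters of the same length is 7 CpG and 52.7%. The inner peak stood at 63.7% and 69.6% of the lists of knockdown replicates 1 and 2 and at 13.8% of that of control replicate 2. A further site at 84635704 to 84636101 was held by knockdown replicate 1 and both controls.

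Jup, plakoglobin, is an armadillo protein shared by adherens junctions and desmosomes. Its high-coordinate end (gene at chromosome 11, 100368856 to 100397839) held, in each library, the strongest of the peaks listed at the 9 genes. These stood at 1.02% and 1.20% of the lists of knockdown replicates 1 and 2 and at 15.2% and 4.75% of those of control replicates 1 and 2. Ranks from lists of different lengths cannot show whether there was a change between groups. The annotated start of Jup lies there, and its sequence, from RefSeq (GRCm38.p6), is printed to show the stretch that was open in every library. Capitals mark the 280 bases under a peak in all 4 libraries, in chr11:100397741-100398040, minus strand.
Jup start: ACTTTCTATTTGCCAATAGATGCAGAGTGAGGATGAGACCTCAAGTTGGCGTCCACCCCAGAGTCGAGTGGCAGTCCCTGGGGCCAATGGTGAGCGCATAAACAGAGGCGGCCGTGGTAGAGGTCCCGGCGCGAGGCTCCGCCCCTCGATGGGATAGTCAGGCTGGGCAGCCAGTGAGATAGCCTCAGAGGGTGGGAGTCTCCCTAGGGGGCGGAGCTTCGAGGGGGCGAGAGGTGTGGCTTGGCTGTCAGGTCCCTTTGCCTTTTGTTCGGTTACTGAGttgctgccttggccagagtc
The lncRNA gene Gm12348 has an end under the same peaks, so these peaks cannot be assigned to either gene by position. The Jup window held 1 and 3 peaks in knockdown replicates 1 and 2, against 1 and 2 in control replicates 1 and 2, which overlap (exact permutation p = 1).

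The letters CACCTG, known as the E2-box that Zeb1 binds, were searched on both strands. They were in neither the Jup stretch nor the Ctnnd1 stretches, and are in 20.2% of all 32851 promoters. Only these exact letters were searched, so shorter or variant binding sites were not covered. The letters CCGGAA, an ETS core searched in the same way, had 1 match, in the outer Ctnnd1 stretch, and are in 14.9% of all promoters. The promoter table held 2 of the 9 genes, so Cdh1, Cdh2, Cdh3, Cdh5, Cdh11, Cdh13 and Ctnna1 were not searched.

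Ctnna1, the actin-linking catenin (chromosome 18, 35118902 to 35254776), held 1 peak in each knockdown library and 0 in each control, without overlap (exact permutation p = 0.333). Both peaks covered its low-coordinate end, from 35118414 to 35119453 after merging. They stood at 46.3% and 30.8% of the lists of knockdown replicates 1 and 2, with fold enrichments of 4.55 and 5.76. An end of another annotated protein-coding gene, Gm46617, lies 253 bp from the peak of knockdown replicate 1 and 573 bp from that of knockdown replicate 2. Ctnna1 kept the pattern at a −log10 q of 3 or more and in lists of the 7608 strongest peaks, the only 1 of the 9 genes whose gene end did so in both.

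Across all 9 genes, the 33 merged regions comprised 7 knockdown-only regions, against 10.1% of all 25263 regions, and 0 control-only regions (0.158% of all regions). The 7 were 3 at Cdh1, 2 inside Cdh5, and 1 each at Cdh2 and Ctnna1. Another 3 regions, 2 at Cdh5 and 1 at Jup, were held by all 4 libraries, against 20.3% of all regions. A single library held 20 of the 33, or 60.6%, against 41.9% of all regions, and 14 of these 20 belonged to knockdown replicate 2, the longest list. Of the 57 peaks in the 9 windows, 17 lay at a gene end and 31 ranked in the weaker part of their list, below 50% from the top.

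**Figure D4:**
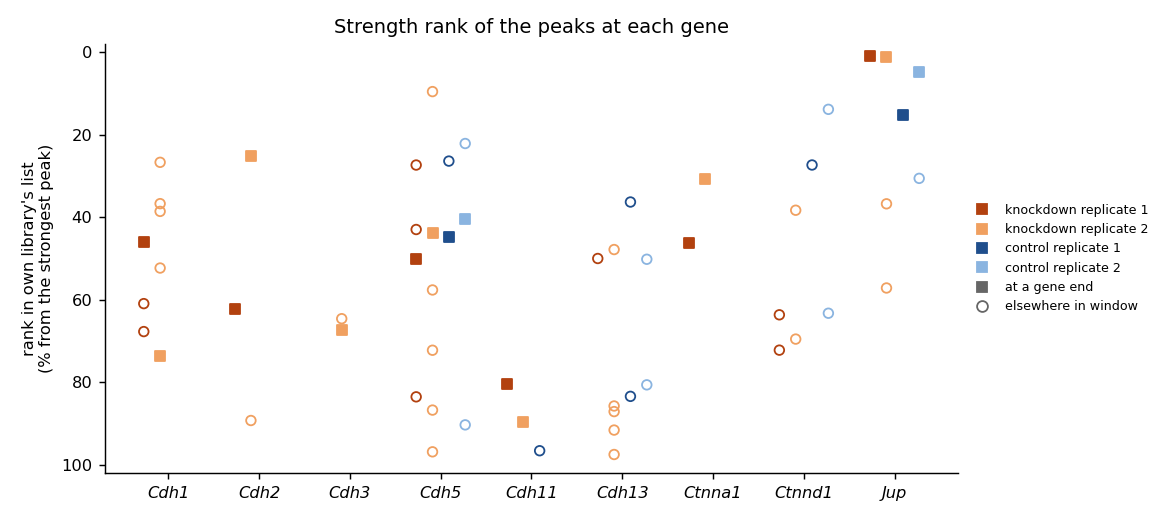
Rank of each peak in its own library's list, as percent counted from the strongest peak (vertical axis, strongest at the top), for the 9 genes. Filled squares are gene-end peaks and open circles other peaks in the window. The Jup end peaks lie at the top, at 1.02% and 1.20% in the knockdown libraries, and the Cdh11 and most Cdh13 peaks lie low.

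The genes whose windows were most like those of Cdh1 and Cdh5 were sought over the peak numbers of the 4 libraries, by the sum of absolute differences. For Cdh1 the smallest sum was 1, reached by 8 of 21630 genes, and for Cdh5 it was 0, reached by Ahnak and Nedd9. The genes with 0 control peaks among the 8 were Ankrd33b, Kcnma1 and Stimate. These names lay outside the naming rule and were given after their values were seen. None of the other 8 genes or of the 61 junction genes below came within a sum of 1 of either.

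Other genes of the cadherin and catenin junction were taken from 8 lists by role, 61 genes in all. At their ends, 26 and 33 had a peak in knockdown replicates 1 and 2, against 15 and 24 in control replicates 1 and 2. These are 42.6% and 54.1% in the knockdown libraries and 24.6% and 39.3% in the controls, against 39.5% and 45.2% of all genes in the knockdown libraries and 22.0% and 38.5% in the controls. In all, 4 were knockdown-only (6.56%, against 3.8% of all genes), 0 were control-only (0.0324% of all genes) and 15 had a peak in all 4 libraries (20.9% of all genes). The median of the difference in mean peak number was 0.5 over the 61 genes and 0 over all genes, without matching for window length.

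The 4 were 3 cadherins and a nectin. Cdh4, R-cadherin, had an end peak in both knockdown libraries and none at its end in the controls, but its window held 2 and 3 peaks in the knockdown libraries and 2 and 1 in the controls. Cdh16, a cadherin known from kidney, had window peaks of 2 and 1 in the knockdown libraries, against 0 and 0 in the controls. Cdh24, a type II cadherin, had 1 and 1 against 0 and 0, and its merged end peak lies 565 bp from an end of the gene Acin1. The annotated start of Cdh24 lies under it, in chr14:54641315-54641614 on the minus strand (RefSeq, GRCm38.p6). It is printed as the start of a knockdown-only cadherin, and the starts of Cdh4 and Cdh16 were not looked up. Capitals mark the 200 bases under a peak in both knockdown libraries.
Cdh24 start: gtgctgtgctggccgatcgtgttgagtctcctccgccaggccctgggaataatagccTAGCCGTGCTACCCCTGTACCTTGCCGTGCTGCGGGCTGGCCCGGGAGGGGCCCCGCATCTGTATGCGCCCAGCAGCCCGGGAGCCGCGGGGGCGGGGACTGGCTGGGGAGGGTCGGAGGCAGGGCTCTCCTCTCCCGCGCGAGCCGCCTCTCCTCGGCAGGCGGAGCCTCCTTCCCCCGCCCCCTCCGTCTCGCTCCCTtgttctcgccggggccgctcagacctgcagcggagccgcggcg
It holds neither the E2-box nor the ETS letters given above. Nectin3, an adhesion molecule of the immunoglobulin family that works beside cadherins, was knockdown-only within 1 kb of its gene end. However, peaks of all 4 libraries overlapped the 300 bp promoter stretch at its annotated start, with 189 of its bases under a peak in each. Its window held 1 peak in each library.

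Genes with an open end in every library included the nectin and afadin genes Afdn, Nectin2 and Pvr. They also included the actin linkers Actn1, Vcl, Vezt and Zyx, and Arvcf, Ctnna3 and Pkp4 among the other catenin and armadillo genes. Among phosphatases and junction regulators, these were Adam10, Ptprk, Ptprm and Rap1b. Of the other type II cadherins, 9 of 11 had no gene-end peak in any library, and of the desmosome genes 5 of 9, against 51.5% of all genes. Desmosome genes had an end peak in 1 and 3 of 9 cases in the knockdown libraries and in 0 and 0 in the controls, with 0 knockdown-only, since none was shared by both knockdown libraries. Over windows, 4 of the 61 genes were knockdown-only (Cdh16, Cdh24, Nectin4 and Pkp1), against 3.96% of all genes, and 1 was control-only, against 0.19%. This was Ctnnd2, a neural relative of Ctnnd1, with 0 and 0 peaks in the knockdown libraries and 5 and 1 in control replicates 1 and 2. Nectin4, Pkp1 and Ctnnd2 were named after their values were seen.

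**Figure D5:**
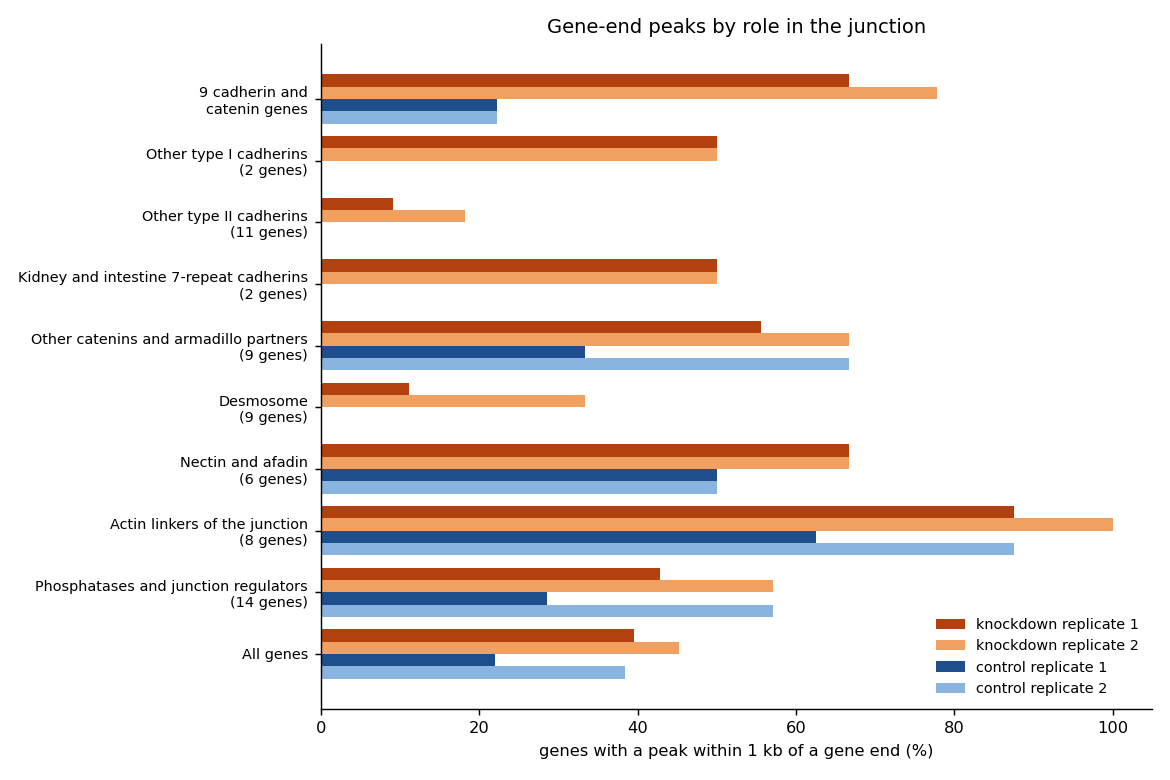
Percent of genes with a peak within 1 kb of a gene end (horizontal axis, from 0) for the 9 cadherin and catenin genes and 8 lists of other junction genes, with all genes at the bottom and 1 bar per library. Among the 9, 6 and 7 genes have an end peak in knockdown replicates 1 and 2, against 2 and 2 in the controls. Over all genes the shares are 39.5% and 45.2% in the knockdown libraries and 22.0% and 38.5% in the controls, and 5 of the 8 actin linkers have one in all 4 libraries.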

How the data were processed

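The groups and replicate numbers came from the sample titles, with 2 knockdown and 2 control libraries. What was deposited is a broad peak list on mm10 for each library. Per the submitters' processing notes, MACS2 2.1.1, Bowtie2 2.3.2, Trimmomatic 0.36, SAMtools 1.3, bedtools 2.26.0 and Picard 2.9.2 were used, without roles or settings. A shift of reads for the transposase is not mentioned there. The deposited peaks carry a fold enrichment, which is a ratio to the background of that library, besides a −log10 p, a −log10 q above 1, and a score made from the −log10 q. The authors' fold and −log10 values were used only to rank and filter within a list. Depth is unknown.

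Gene positions came from RefSeq (GRCm38.p6, the assembly behind mm10). Overlapping or touching peaks of the 4 libraries were merged into regions on the 19 autosomes and X. Counts were made with Python 3.11.15, numpy 2.4.6 and pandas 2.3.3, and the functions were tested on simulated peaks. Libraries were compared by a two-sided exact permutation test with 6 arrangements and, as an alternative, by an exact test within same-numbered pairs. Shares over all genes or regions stand beside the main counts, not beside those of the left-out libraries. All 9 genes were described. Of the junction lists, genes knockdown-only, control-only or open in all 4 libraries at a gene end were named, at most 6 per role, except for a gene that is not reported here. The members and lists were chosen with earlier results of these data known. No genome sequence was used here.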

Additional observations from a re-analysis of the deposited data

How the results depend on the processing

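Over the alternatives, the number of genes with a control-only end stayed at 0 of 9. With a −log10 q of at least 3, 2 genes had a knockdown-only end, against 4 at the deposited threshold. With the 7608 strongest peaks of each library 1 had one, knockdown-only regions fell to 1, against 7, and the knockdown minus control difference in summed peaks was 0.5, against 12.5. That filter shortens every list but that of control replicate 1. With a flank of 50 kb this difference was 20.5. Leaving out each library in turn, knockdown-only ends numbered 4 to 5, knockdown-only windows 3 to 4 and knockdown-only regions 7 to 21. The difference in summed peaks lay between 6 and 19. Leaving out a library only loosens the knockdown-only rule, so the counts of ends and windows could not fall and say nothing about stability. The value of 21 is that without knockdown replicate 1, where peaks of knockdown replicate 2 alone count. The differences of 6 and 19 are those without knockdown replicate 2 and without knockdown replicate 1.

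Of 90 recomputed differences in peak number for single genes, 6 changed sign. With the 7608 strongest peaks these were Cdh11 (-0.5), Cdh13 (-1) and Ctnnd1 (-1). With a −log10 q of at least 3 it was Ctnnd1 (-0.5). Without knockdown replicate 2 they were Cdh13 (-1) and Jup (-0.5), whose values with each library left out in turn ranged from -1 to 3 and from -0.5 to 1.5. A fall to 0 was not counted as a change of sign, and the 90 include the replicate block, which cannot change. With the 7608 strongest peaks Cdh3, Cdh5 and Jup fell to 0, while Cdh1 (1.5), Cdh2 (0.5) and Ctnna1 (1) stayed above it. Under other settings, falls to 0 occurred at Cdh3, Cdh11, Cdh13, Ctnnd1 and Jup. The causes were not tested. A replicate block cannot move these values (4 ends, 3 windows, 7 regions, a difference of 12.5 peaks), since presence uses no model and the pairs are balanced, so it says nothing about stability. An exact test over 2 pairs cannot give a p below 0.5 and gave 0.5 to 1 for the 9 genes. Libraries of the same number deviated from their group means with a correlation of 0.135 over 14242 genes, and no label says that a number marks a shared animal or day. Restricting gene ends to annotated starts was not run, because the strand was at hand for 2 of the 9 genes.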
